A study of Mus musculus with 6 samples.

Results

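The 32 cholesterol and fatty acid synthesis genes described here encode the enzymes that turn acetyl-CoA into sterols or into fatty acids, the elongases and desaturases that finish the fatty acids, and regulators of both routes. They were chosen by symbol from a list. Each had 1 row among the 18988 rows of the expression table, and all 32 were among the 11857 rows tested, those with at least 1 FPKM in at least 3 of the 6 libraries. FPKM is a count of sequenced fragments scaled by gene length and by the total of the library, so levels can be compared between genes of a library. Between libraries it moves with what the most abundant genes take, as given below.

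The 6 libraries, each from 1 C57BL/6 mouse, were made from RNA of the stomach corpus, which holds the acid- and pepsinogen-secreting glands. Replicates 4, 5 and 6 carried the genotype PGC;Ras;APC FF and are called the PGC libraries below. Replicates 1, 2 and 3 carried Ras;APC FF and are labelled as controls, so the Ras;APC FF elements are shared by both groups and the comparison is of corpus with and without the PGC element. No label says what PGC or FF stands for, and none gives a Cre driver, an inducing agent, an age, a sex or a time point.

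Cholesterol is built from acetyl-CoA through mevalonate, isoprenoid diphosphates and squalene, which is closed into a ring and trimmed to cholesterol. Fatty acids are built from the same acetyl-CoA by way of malonyl-CoA, then lengthened by elongases and given double bonds by desaturases. Both routes are switched on by the SREBP transcription factors, which INSIG proteins hold in the endoplasmic reticulum when sterols are plentiful. Dividing and secreting epithelial cells draw on both routes for new membrane.

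Some facts of the libraries bear on every value below. The digestive genes Pgc, Clps and Pla2g1b together took 6.36% to 32.7% of summed FPKM in the PGC libraries and 34.9% to 48.1% in controls, with the lowest share in replicate 6, a library that stood apart from the other PGC libraries. The median log2 difference of all tested genes between PGC and control libraries was 0.26 on the deposited scale and -0.0071 after median-of-ratios scaling, which sets the typical gene equal between libraries. A difference near 0.26 is therefore the difference of the median gene. Xist and the Y-linked genes Ddx3y and Eif2s3y showed that control replicate 3 was the only library from a male, so that sex is not balanced between the groups. The most abundant parietal and chief cell markers of the corpus were high in every library. Atp4b was at 723 to 3849 FPKM in PGC libraries and 4068 to 4614 FPKM in controls. Other markers were low, such as the parietal gene Slc26a7 at 0.54 to 5.44 FPKM. Replicate 6 was the lowest library for the summed markers, at 1811 FPKM for parietal and 36345 FPKM for chief cells.

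Most members read somewhat higher in PGC corpus, and none passed the test. Summed over the 32 genes, the level was 780, 917 and 1257 FPKM in PGC replicates 4, 5 and 6, against 694, 727 and 686 FPKM in control replicates 1, 2 and 3. The median log2 difference of the members, on the log2(FPKM + 1) scale used for every difference here, was 0.43, and 30 of the 32 differences were positive, against 80.6% of all tested genes. With limma and Benjamini-Hochberg adjustment over all tested genes at 0.05, 0 of 32 members were called in either direction, where 0.11% of all genes were called higher and 0.0422% lower. At an unadjusted limma p under 0.05, 13 members were higher and 1 was lower, against 31.8% and 3.63% of all genes. In 16 of the 32, every PGC library lay above every control library, against 42.7% of all genes, and in 1, Acacb, every PGC library lay below, against 5.47%. These shares are close to the background, so nothing particular to the members is read from them. In whole-tissue RNA, fewer cells of a type and less RNA per cell cannot be told apart.

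The calls depended on single libraries. Leaving out replicate 6 gave 2 members called higher, Fdps and Fads2, where 8.11% of all genes were called higher and 0.961% lower. Leaving out replicate 5 also gave 2, Scd2 and Fads2, against 4.55% and 0.388%. Leaving out any other single library gave 0 members, against 0% of all genes in either direction without replicate 1 or 2, 0% higher and 0.00843% lower without replicate 3, and 0.0337% higher and 0.0253% lower without replicate 4. Leaving out both replicates 3 and 6, an alternative chosen after seeing the data, gave Fdps, Ebp, Srebf1 and Fads2 higher and Scd1 lower, against 16.4% and 1.34%. In that setting 19 members lay above all controls, against 55.8%, and 3 lay below, against 9.18%. With libraries weighted by their fit, although the weights did not converge, Fdps, Ebp, Srebf1, Scd2, Elovl6 and Fads2 were called higher and Acacb and Scd1 lower, against 29.7% and 3.11%.

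Leaving out replicate 6 made the difference over 1.5 times smaller, with its sign kept, in 21 of the 32 members, against 4 members without replicate 3, 2 without replicate 5 and 0 without replicate 1, 2 or 4. With fewer libraries, groups separate more easily. Leaving out replicates 1, 2, 3, 4, 5 and 6 in turn, 17, 19, 19, 25, 18 and 16 members lay above all controls, against 44.6%, 52.1%, 53.3%, 49.3%, 53% and 44.2% of all genes. In the same turn, 1, 1, 1, 1, 1 and 2 members lay below all controls, against 7.84%, 6.41%, 6.99%, 7.23%, 7.53% and 6.83%. The sterol enzymes of replicate 4 were among the controls in several cases, and the count was highest without it.

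**Figure D1:**
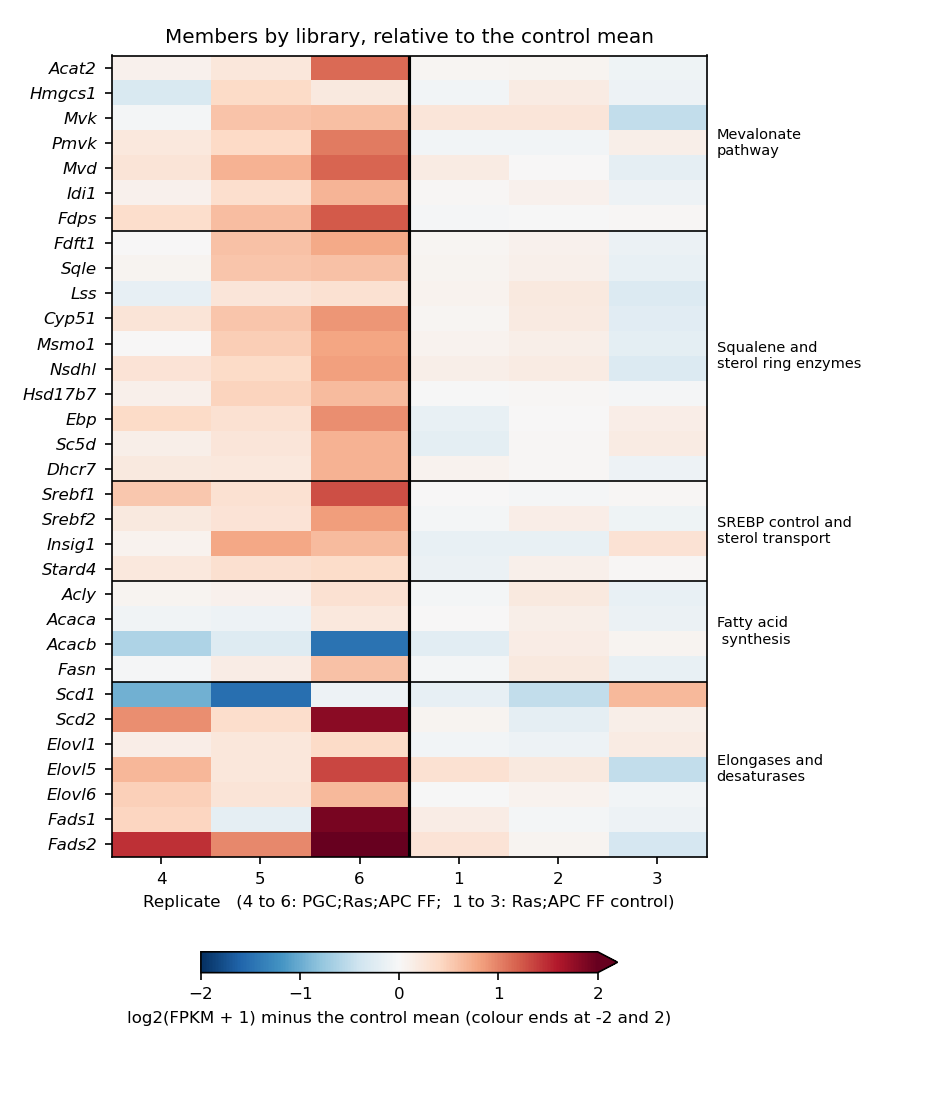
Level of each member in each library as log2(FPKM + 1) minus the mean of the 3 controls, with PGC replicates 4 to 6 left of the line and control replicates 1 to 3 right of it, and genes grouped by role. Replicate 6 is the deepest red column in most rows. Acacb is blue in the PGC columns, most in replicate 6 at -1.47. Scd1 is blue in replicates 4 and 5 and close to white in replicate 6 at -0.11. The fatty acid synthesis rows other than Acacb are paler, at most 0.59 for Fasn in replicate 6.

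After median-of-ratios scaling the median of the members was 0.13, 24 differences were positive and 8 negative, and 5 members (Fdps, Srebf1, Scd2, Elovl6 and Fads2) kept every PGC library above every control, where 17.6% of all genes did, and 3 (Acaca, Acacb and Scd1) had every PGC library below, where 17.5% did. With quantile normalization 4 members lay above and 3 below, against 17% and 18.5% of all genes. With a library total taken over all but the 50 most abundant genes, 3 lay above and 3 below, against 14% and 19.5%. The differences of Hmgcs1, Lss, Acly, Acaca, Fasn and Elovl1 turned negative under all 3 scalings, and that of Stard4 under the last of them. The median of the mevalonate group was 0.14 to 0.19 over these scalings, that of the sterol ring group 0.081 to 0.13, that of the regulators and carriers 0.10 to 0.15 and that of the elongases and desaturases 0.38 to 0.42. The median of the core fatty acid synthesis enzymes was -0.24 to -0.20, with all 4 differences negative.

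**Figure D2:**
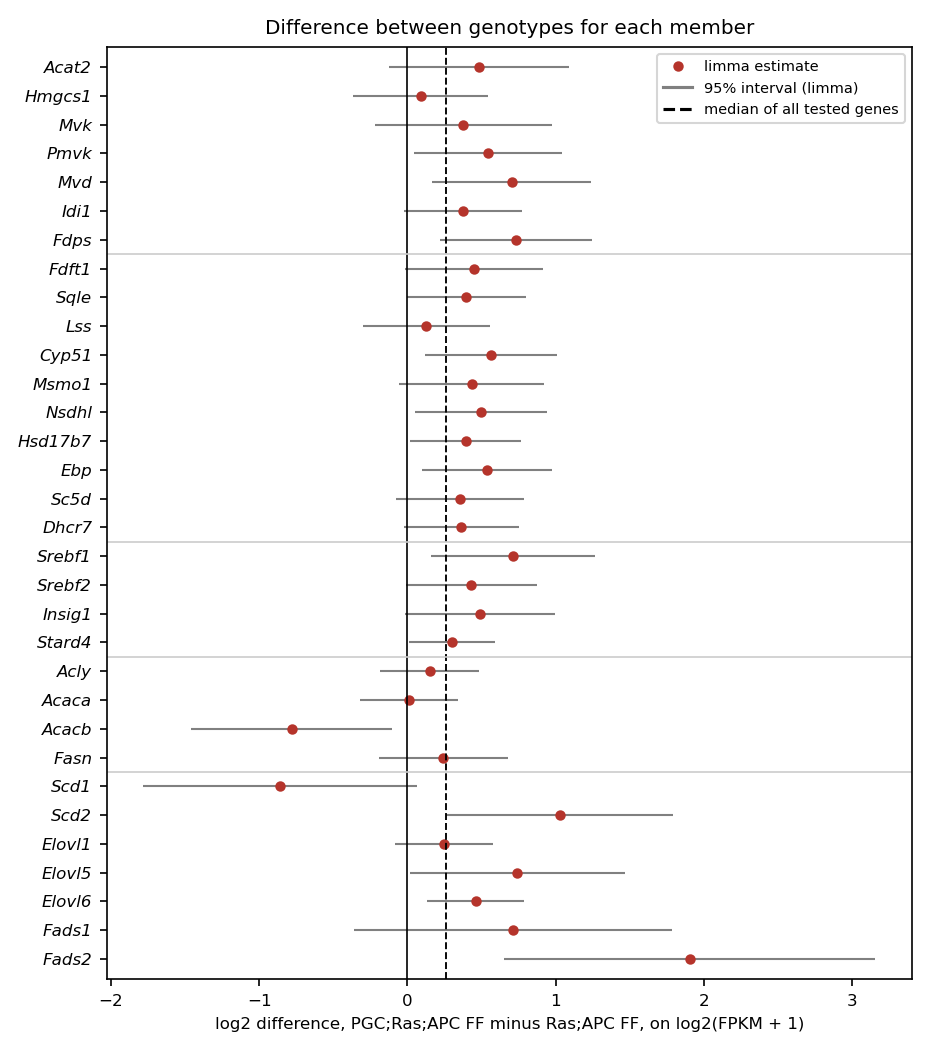
Log2 difference of each member, PGC;Ras;APC FF minus Ras;APC FF, as a point with its limma 95% interval, with a solid line at 0 and a dashed line at 0.26, the median of all tested genes. Fads2 lies farthest right at 1.90, Scd1 and Acacb lie left of 0, and most sterol enzymes lie a little right of the dashed line.

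The promoters of the members are shown because sterol genes move together through factors that bind close to the start of transcription. RefSeq promoter windows (GRCm38.p6, 300 bases each, most of them before the start) were found for 25 of the 32 members, in 31 windows. Fdps, Fdft1, Sqle, Stard4, Scd1, Scd2 and Fads1 had no window. The core of the sterol regulatory element bound by SREBP, searched on both strands as TCACNCCAC, was in 1 member, Hmgcs1. It was in 1.24% of all 32851 promoters and 1.44% of the 27025 genes they belong to. The longer element, which is this core with an A before it and so overlaps it, was in 0 of the 25 members. It was in 0.234% of all promoters and 0.27% of genes. The CCAAT box of the factor NF-Y, searched as CCAAT on both strands, was in 22 of the 31 windows, against 37.4% of all promoters. By gene it was in 21 of the 25 members, against 41.1% of all genes with a promoter. The Sp1 box GGGCGG, which can lie near either of them, was in 22 of the 31 windows against 35.7% of all promoters, and the palindromic E-box CACGTG was in 5 of 31 against 7.15%. A match is a description of letters and not a bound site. Only exact matches were counted, so a site with a differing letter or outside the window would be missed.

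The stretch from base -150 to base -1 before the start is printed for 5 members, with the CCAAT box (read as ATTGG on the other strand) and the short sterol element in capitals. They were picked to cover the start, the middle and the end of the sterol route and the fatty acid route. Hmgcs1 lies at chr13:119690201-119690350 on the plus strand, Mvk at chr5:114444119-114444268 on the plus strand, Mvd at chr8:122443423-122443572 on the minus strand, Ebp at chrX:8193513-8193662 on the minus strand and Fasn at chr11:120824548-120824697 on the minus strand.
Hmgcs1: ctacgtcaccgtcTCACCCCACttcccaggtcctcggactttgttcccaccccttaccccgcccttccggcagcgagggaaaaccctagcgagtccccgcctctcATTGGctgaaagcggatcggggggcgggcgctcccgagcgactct
Mvk: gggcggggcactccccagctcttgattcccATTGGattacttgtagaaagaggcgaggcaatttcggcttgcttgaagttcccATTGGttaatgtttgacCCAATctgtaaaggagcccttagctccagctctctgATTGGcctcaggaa
Mvd: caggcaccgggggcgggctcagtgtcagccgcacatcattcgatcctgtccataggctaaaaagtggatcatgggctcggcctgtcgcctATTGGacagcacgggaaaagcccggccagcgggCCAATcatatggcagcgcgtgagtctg
Ebp: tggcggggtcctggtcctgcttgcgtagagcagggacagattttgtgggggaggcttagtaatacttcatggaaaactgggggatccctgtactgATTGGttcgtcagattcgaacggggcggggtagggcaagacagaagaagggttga
Fasn: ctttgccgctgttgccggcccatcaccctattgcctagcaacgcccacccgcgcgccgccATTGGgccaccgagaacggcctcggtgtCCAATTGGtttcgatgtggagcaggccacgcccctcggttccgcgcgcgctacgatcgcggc
In Hmgcs1 the sterol element began at base -137 and the CCAAT box of the printed stretch at base -45. The box nearest to the element in the whole window, at base -176, lies outside the stretch. Mvk held the most CCAAT boxes of these stretches, and in Fasn a forward and a reverse box, at bases -62 and -59, overlap. Between the genotypes, Hmgcs1 had a log2 difference of 0.09, Mvk 0.38, Mvd 0.70, Ebp 0.54 and Fasn 0.24.

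The mevalonate enzymes read higher in PGC corpus in all 7 cases, against 80.6% of all tested genes, with a median log2 difference of 0.48. Of the 7 enzymes 0 passed the limma test, where 0.11% of all tested genes were called higher and 0.0422% lower. Without replicate 6 the median was 0.27. Their group level, the mean log2(FPKM + 1) minus its control mean, was 0.09, 0.46 and 0.86 in PGC replicates 4, 5 and 6 and 0.05, 0.07 and -0.12 in control replicates 1, 2 and 3. The PGC libraries were thus spread over a wide range, with replicate 4 close to the controls. Acat2, the cytosolic thiolase that joins acetyl-CoA units, was at 8.73, 9.67 and 18.93 FPKM in PGC libraries and 8.35, 8.51 and 7.57 FPKM in controls. Hmgcs1, which makes HMG-CoA, was the most abundant member on the control side, at 64.1, 103 and 90.4 FPKM in PGC libraries and 76.1, 88.2 and 73.4 FPKM in controls. The groups of Hmgcs1 overlapped, and its log2 difference of 0.09 (SE 0.20, 95% interval -0.37 to 0.55, limma adjusted p = 0.742) lay below that of the median gene.

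Fdps, which joins isoprenoid units into farnesyl diphosphate (chromosome 3, 89093588 to 89101959, minus strand), stood out within this group for its tight controls. It was at 74.0, 88.6 and 136 FPKM in PGC libraries and at 56.7, 57.4 and 58.6 FPKM in controls. Every PGC library lay above every control, with a log2 difference of 0.73 (SE 0.22, limma adjusted p = 0.0912), and without replicate 6 it was 0.48 (limma adjusted p = 0.0472, with a range of 0.0207 to 0.250 over 15 alternatives). GENCODE M21 lists a read-through gene, Gm43738, that shares 26.7% of the exonic bases of Fdps on the same strand, so reads there could belong to either. Mvd, which decarboxylates mevalonate diphosphate, was at 16.2, 22.4 and 31.5 FPKM in PGC libraries and 15.3, 13.6 and 11.8 FPKM in controls (log2 difference 0.70, limma adjusted p = 0.0972). The phosphomevalonate kinase gene Pmvk, at 11.4, 13.1 and 21.0 FPKM in PGC libraries and 9.35, 9.30 and 10.7 FPKM in controls, and the isomerase gene Idi1, at 30.1, 36.0 and 46.0 FPKM in PGC libraries and 28.7, 29.9 and 26.1 FPKM in controls, had the same order of PGC libraries. The mevalonate kinase gene Mvk overlapped between groups, at 13.9, 21.8 and 22.3 FPKM in PGC libraries and 17.1, 17.2 and 9.96 FPKM in controls, where the low value is that of the male mouse.

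The 10 squalene and sterol ring enzymes also all had positive log2 differences, against 80.6% of all tested genes. These enzymes had a median of 0.42, within a range of 0.13 to 0.57, and 0 of 10 passed. Their group level was 0.12, 0.40 and 0.71 in PGC replicates 4, 5 and 6 and 0.01, 0.09 and -0.10 in control replicates 1, 2 and 3. In 5 of the 10 (Cyp51, Nsdhl, Hsd17b7, Ebp and Dhcr7) every PGC library lay above every control, close to the 42.7% of all tested genes. Cyp51, the lanosterol demethylase, was at 26.9, 33.4 and 42.0 FPKM in PGC libraries and 23.0, 25.6 and 18.9 FPKM in controls (log2 difference 0.57, SE 0.19, limma adjusted p = 0.101). Ebp, a sterol isomerase, was at 36.1, 33.9 and 52.8 FPKM in PGC libraries and 24.6, 27.4 and 30.2 FPKM in controls (log2 difference 0.54, SE 0.19, limma adjusted p = 0.105). Of this role group, it was the member in which replicate 4 exceeded replicate 5.

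The entry enzymes of the squalene branch overlapped between the groups through replicate 4. The squalene synthase gene Fdft1 was at 25.2, 37.9 and 42.6 FPKM in PGC libraries and 25.5, 26.5 and 22.9 FPKM in controls, and 18.3% of its exonic bases are shared with Ctsb on the opposite strand, which reads without a stated strand cannot tell apart. The squalene epoxidase gene Sqle, which catalyses a rate-limiting oxidation, was at 27.8, 39.4 and 40.5 FPKM in PGC libraries and 27.6, 28.5 and 24.1 FPKM in controls. Msmo1, a sterol methyl oxidase, was at 50.8, 71.5 and 87.3 FPKM in PGC libraries and 53.0, 54.8 and 43.8 FPKM in controls. In each of these, replicates 5 and 6 lay above all controls and replicate 4 lay among them. The lanosterol synthase gene Lss showed the smallest difference of the 10, at 4.90, 6.84 and 7.18 FPKM in PGC libraries and 5.96, 6.60 and 4.48 FPKM in controls (log2 difference 0.13, 95% interval -0.30 to 0.56).

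Of the late enzymes, Hsd17b7 was the least abundant. The sterol dehydrogenase gene Nsdhl was at 12.9, 14.1 and 19.4 FPKM in PGC libraries and 11.5, 11.9 and 8.55 FPKM in controls. The ketosteroid reductase gene Hsd17b7 was at 3.27, 4.45 and 5.23 FPKM in PGC libraries and 2.97, 3.08 and 2.95 FPKM in controls. Sc5d, the lathosterol desaturase, was at 21.4, 23.6 and 32.6 FPKM in PGC libraries and 17.1, 20.1 and 22.3 FPKM in controls, so that replicate 4 lay below the highest control. Dhcr7, whose enzyme makes cholesterol in the last step of one branch, was at 13.3, 13.5 and 19.3 FPKM in PGC libraries and 12.2, 11.7 and 10.7 FPKM in controls, a log2 difference of 0.36 (limma adjusted p = 0.156).

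The 4 regulators and carriers had positive log2 differences, against 80.6% of all tested genes, with a median of 0.46, and 0 of 4 passed. Srebf1, which encodes SREBP-1, the main activator of fatty acid genes (chromosome 11, 60199089 to 60222581, minus strand), was at 25.9, 21.9 and 43.9 FPKM in PGC libraries and at 17.5, 17.2 and 17.7 FPKM in controls. The controls were within a narrow band and every PGC library lay above it (log2 difference 0.71, SE 0.24, limma adjusted p = 0.0986). Without replicate 6 the difference of Srebf1 was 0.43. Srebf2, which encodes the sterol activator SREBP-2, was at 45.5, 48.2 and 71.4 FPKM in PGC libraries and 38.4, 43.8 and 37.2 FPKM in controls (log2 difference 0.43, limma adjusted p = 0.148). Insig1, which retains SREBP and is itself an SREBP target, followed another order, with 34.1, 56.1 and 51.1 FPKM in PGC libraries and 29.3, 29.3 and 39.9 FPKM in controls, so that replicate 4 lay below the highest control. Stard4, a cytosolic sterol carrier, was at 5.36, 5.83 and 6.04 FPKM in PGC libraries and 4.04, 4.85 and 4.55 FPKM in controls (log2 difference 0.30, SE 0.13), close to the difference of the median gene.

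**Figure D3:**
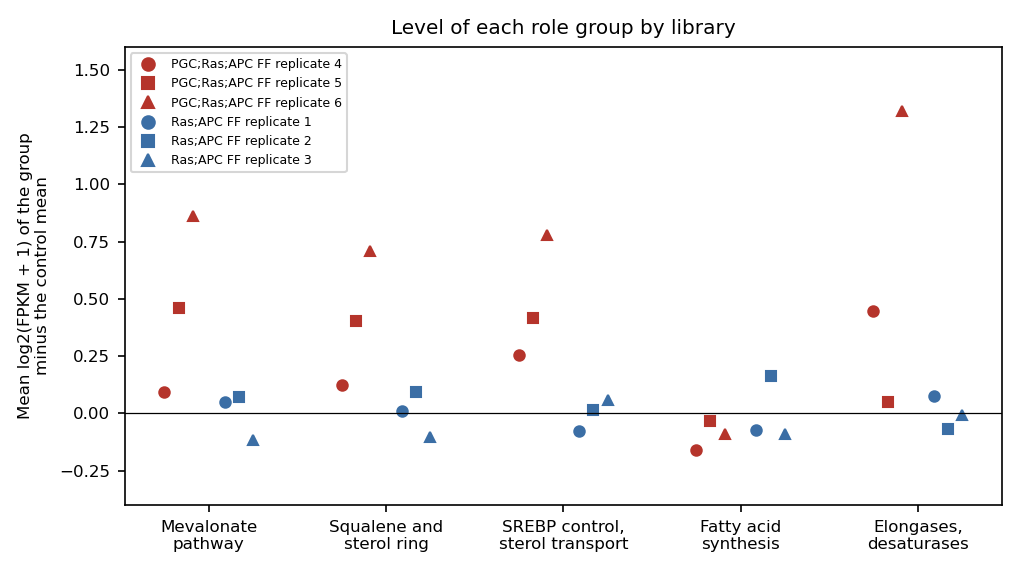
Mean log2(FPKM + 1) of each role group in each library minus its control mean, with the PGC libraries left of the controls in each column and a marker shape for each replicate. The mevalonate and sterol ring groups run upwards over replicates 4, 5 and 6, the fatty acid synthesis group stays between -0.16 and 0.16 in every library, and the elongases and desaturases have replicate 5 close to the controls and replicate 6 at 1.32. In replicate 6 the fatty acid synthesis level joins a low Acacb with Acly, Acaca and Fasn above their control means.

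The 4 core enzymes of fatty acid synthesis, counting Acacb, did not share the higher readings as a group. Their group level was -0.16, -0.03 and -0.09 in PGC replicates 4, 5 and 6 and -0.07, 0.16 and -0.09 in control replicates 1, 2 and 3, and 0 of 4 passed in either direction. The level of replicate 6 joined Acacb at -1.47 from its control mean with Acly at 0.30, Acaca at 0.21 and Fasn at 0.59. The median log2 difference of the 4 was 0.080, and -0.011 without replicate 6. Acly, which releases cytosolic acetyl-CoA from citrate, was at 31.2, 31.9 and 37.2 FPKM in PGC libraries and 29.3, 34.3 and 26.8 FPKM in controls (log2 difference 0.15, 95% interval -0.18 to 0.49). Fasn, the fatty acid synthase, was at 19.9, 22.5 and 30.9 FPKM in PGC libraries and 19.5, 23.2 and 18.1 FPKM in controls (log2 difference 0.24, 95% interval -0.19 to 0.68). Acaca, the cytosolic acetyl-CoA carboxylase that commits carbon to synthesis, was at 3.15, 3.05 and 4.03 FPKM in PGC libraries and 3.37, 3.71 and 3.02 FPKM in controls (log2 difference 0.01, 95% interval -0.32 to 0.34). The groups of all 3 overlapped, and none of the 4 differences reached that of the median gene.

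Acacb, the mitochondrial carboxylase whose malonyl-CoA restrains fatty acid oxidation (chromosome 5, 114146535 to 114250761, plus strand), went the other way. It was at 8.53, 11.1 and 4.25 FPKM in PGC libraries and 11.6, 15.2 and 14.2 FPKM in controls. Every PGC library lay below every control, with a log2 difference of -0.78 (SE 0.29, limma adjusted p = 0.113), and 1.21% of all tested genes had a lower difference. Without replicate 6 the difference of Acacb was -0.44. Within the PGC libraries its lowest value, in replicate 6, coincided with the lowest parietal markers: the 8 parietal genes, none at 0 in any library and all with negative differences, summed to 1811 to 8808 FPKM in PGC libraries and 7939 to 9832 FPKM in controls. One of them, Gif, is made by chief cells of the mouse. Without it the other 7 summed to 1253 to 6427 FPKM in PGC libraries and 6669 to 7655 FPKM in controls. Replicate 6 was also the lowest library for the adipocyte, chief cell and smooth muscle sums, at 84.2, 36345 and 887 FPKM. The part of any of these markers in the Acacb values was not tested.

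The desaturases and elongases held the largest differences of the 32 in both directions. Fads2, the delta-6 desaturase that opens the synthesis of long polyunsaturated fatty acids (chromosome 19, 10062765 to 10101746, minus strand), was at 18.7, 12.9 and 69.2 FPKM in PGC libraries and 7.67, 6.45 and 4.64 FPKM in controls. Every PGC library lay above every control, and the means were 33.6 ± 31.0 FPKM in PGC libraries and 6.25 ± 1.52 FPKM in controls (SD, n = 3 each). The log2 difference was 1.90 (SE 0.54, limma adjusted p = 0.0883), and 99.2% of all tested genes had a lower one. Leaving out replicate 6, where the level was highest, it was 1.21 (SE 0.21, limma adjusted p = 0.0296), and over 15 alternatives the adjusted p ranged from 0.00578 to 0.245 and the difference from 1.04 to 2.38. Fads1, the delta-5 desaturase that acts next in that route (chromosome 19, 10182888 to 10196877, plus strand), was at 9.71, 6.01 and 28.65 FPKM in PGC libraries and 7.81, 6.77 and 6.40 FPKM in controls, so that replicate 5 lay below every control. Its log2 difference was 0.71 with all libraries (limma adjusted p = 0.276) and 0.12 without replicate 6.

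The paired stearoyl-CoA desaturases, which make monounsaturated fatty acids, diverged. Scd2 (chromosome 19, 44293674 to 44306864, plus strand) was at 35.8, 23.7 and 66.5 FPKM in PGC libraries and 19.2, 16.1 and 20.1 FPKM in controls, with every PGC library above every control (log2 difference 1.03, SE 0.33, limma adjusted p = 0.0954). Without replicate 6 the difference of Scd2 was 0.64 (limma adjusted p = 0.0657), and without replicate 5 it was 1.36 (limma adjusted p = 0.0373, with a range of 0.00869 to 0.250 over 15 alternatives). Its neighbour Scd1 (chromosome 19, 44394455 to 44407879, minus strand) was at 4.92, 3.09 and 9.75 FPKM in PGC libraries and 9.30, 7.26 and 17.2 FPKM in controls. Replicate 6 lay within the range of the controls, and the log2 difference was -0.86 (SE 0.40, 95% interval -1.78 to 0.06, limma adjusted p = 0.159). Without replicate 3 or without replicate 5 the difference of Scd1 was smaller, -0.53 and -0.54. Without replicate 6 it was -1.23 (limma adjusted p = 0.0533, with a range of 0.0195 to 0.370 over 15 alternatives). Without replicates 3 and 6, which leaves only females, it was -0.91 (limma adjusted p = 0.0347).

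**Figure D4:**
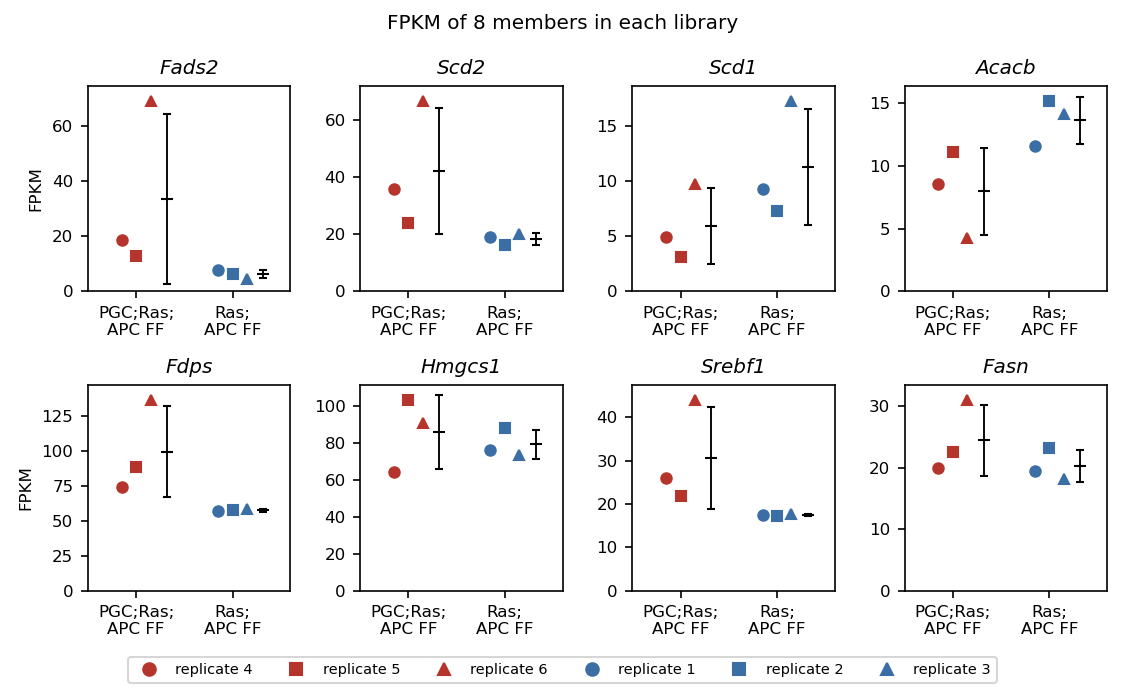
FPKM of 8 members in each library, PGC;Ras;APC FF left of Ras;APC FF, with a marker shape for each replicate and the mean and SD (n = 3) as a bar beside the points. Replicate 6 is highest of all libraries for Fads2, Scd2, Fdps, Srebf1 and Fasn and lowest for Acacb, and Hmgcs1 is highest in replicate 5.

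Ratios of 2 genes within a library do not depend on a factor applied to the whole library. The ratio of Scd2 to Scd1 was 7.28, 7.68 and 6.82 in PGC replicates 4, 5 and 6 and 2.06, 2.21 and 1.16 in control replicates 1, 2 and 3. The ratio of Fads2 to Fads1 was 1.92, 2.14 and 2.41 in the PGC libraries and 0.98, 0.95 and 0.73 in the controls. Both ratios separated the groups without overlap, although the FPKM of these genes differed several-fold among the PGC libraries. Of 7 ratios computed among members, 4 separated the groups, among them also Fads2 to Scd1 and Fdps to Hmgcs1. The ratios of Srebf1 to Srebf2, Acaca to Acacb and Elovl5 to Elovl6 overlapped. The share of all gene pairs that separate the groups was not computed, so nothing particular to the members is read from this count. The pairs were chosen after their values were seen, so no test is given, and an exact permutation test of 3 against 3 mice cannot go below 0.1. How the authors' counting treated reads shared by the related Scd genes is not given in the sources used here.

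**Figure D5:**
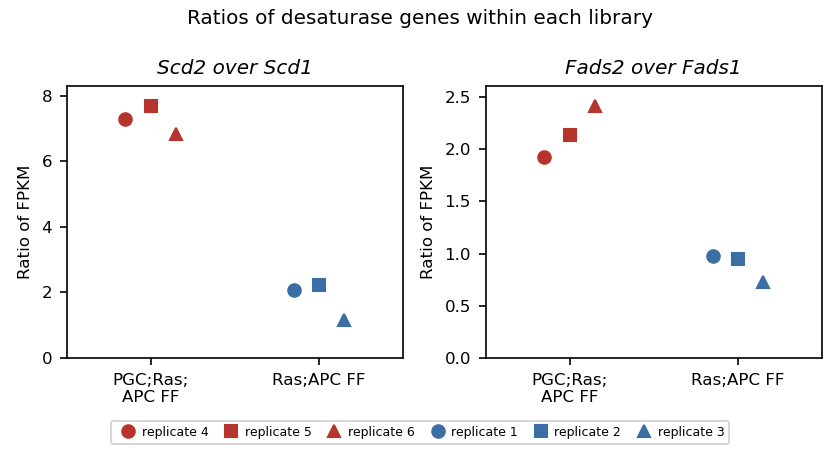
Ratio of FPKM of Scd2 to Scd1 and of Fads2 to Fads1 in each library, PGC;Ras;APC FF left of Ras;APC FF. The PGC libraries lie between 6.82 and 7.68 for the first ratio and between 1.92 and 2.41 for the second, above all controls.

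Scd1 is known for its high expression in fat, and some adipocyte markers were lower in the same libraries. All 10 adipocyte markers were in the table and 6 were tested, of which 2 fell (Adipoq and Cfd, limma adjusted p = 0.0103 and 0.00908) and 5 had a negative difference. Pparg, the adipocyte regulator, went the other way, at 40.2, 39.8 and 45.7 FPKM in PGC libraries and 23.7, 27.8 and 34.2 FPKM in controls, and Cidec overlapped between groups (log2 difference -0.10). Summed, the 10 were at 84.2 to 116 FPKM in PGC libraries and 119 to 165 FPKM in controls, with Adipoq, Lep, Plin1 and Retn at 0 in at least 1 PGC library and none at 0 in a control. Fabp4 and Pparg made up most of this sum. Fabp4 overlapped between groups, at 48.4, 59.3 and 22.1 FPKM in PGC libraries and 58.2, 69.3 and 86.9 FPKM in controls. In control replicate 3, which had the highest Scd1, the adipocyte sum was also highest, although Retn was lowest there among controls. Among the PGC libraries, by contrast, replicate 6 had the highest Scd1 and the lowest adipocyte sum. The part of the adipocyte markers in the Scd1 values was not tested. Fads2 and Scd2 were highest in replicate 6, as were 68.4% of all tested genes. The sum of 5 mucous neck markers was also highest there. It was 4519 to 12961 FPKM in PGC libraries and 2426 to 3579 FPKM in controls, with none of the 5 at 0. Tff2 made up most of this sum, at 3567 to 10906 FPKM in PGC libraries. Muc6 was highest in replicate 5, and Creb3l4 in replicate 4 lay among the controls. The part of the mucous neck markers was not tested either.

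The elongases were less spread. Elovl5, which lengthens polyunsaturated chains, was at 11.4, 8.10 and 18.6 FPKM in PGC libraries and 8.58, 7.90 and 4.56 FPKM in controls, so that replicate 5 lay among the controls (log2 difference 0.74, SE 0.31, limma adjusted p = 0.136). Elovl6, which lengthens palmitate to stearate, was at 5.08, 4.25 and 5.84 FPKM in PGC libraries and 3.34, 3.58 and 3.21 FPKM in controls, without overlap (log2 difference 0.46, SE 0.14, limma adjusted p = 0.0920). Elovl1, an elongase of very long saturated chains, was at 79.6, 85.8 and 94.9 FPKM in PGC libraries and 70.1, 67.7 and 81.5 FPKM in controls, with a log2 difference of 0.25, close to that of the median gene.

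The sterol and the desaturase genes ordered the PGC libraries differently. Of the 17 mevalonate and sterol ring enzymes, 16 were higher in PGC replicate 5 than in PGC replicate 4, against 45.3% of all tested genes. Of the 7 elongases and desaturases, 6 were higher in PGC replicate 4 than in PGC replicate 5, against 54.1% of all tested genes. Replicate 6 was the highest of all 6 libraries for 28 of the 32 members, against 68.4% of all tested genes, and the exceptions were Hmgcs1, Insig1, Acacb and Scd1. On the control side, replicate 3, the male, was the lowest control for 21 of 32 members, against 32.5% of all tested genes. These are comparisons of single mice and carry no test. The mean of the proliferation genes also ordered the PGC libraries this way, although 3 of the 9 were higher in replicate 4 than in replicate 5. Their list level was 0.56, 0.81 and 1.31 in PGC replicates 4, 5 and 6 and 0.16, 0.07 and -0.23 in control replicates 1, 2 and 3, and the 9 genes summed to 132 to 224 FPKM in PGC libraries and 79.0 to 95.3 FPKM in controls, none at 0. Their part in the sterol values was not tested.

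Other genes of these pathways were described by list in the same way. The shares of all tested genes to set beside each list are 80.6% positive, 0.11% called higher and 0.0422% called lower. Over the 3 scalings, the median log2 difference was 0.18 to 0.23 for the further sterol synthesis genes, 0.14 to 0.19 for uptake, efflux and esterification and 0.22 to 0.28 for further elongation and desaturation. It was negative under all 3 for SREBP processing and sterol sensing (-0.13 to -0.083) and for fatty acid precursors and activation (-0.13 to -0.086), and near 0 for the isoprenoid branch (-0.0060 to 0.044) and for triglyceride and phospholipid assembly (-0.0016 to 0.037). Of 8 further sterol synthesis genes tested, 0 passed in either direction, 7 had a positive log2 difference and the median was 0.51, or 0.31 without replicate 6. The most abundant of these 8 were Acat1, Por and Cyb5r3. Por, the reductase that feeds electrons to sterol oxidases, was at 84.5, 71.5 and 116 FPKM in PGC libraries and 52.6, 60.4 and 61.5 FPKM in controls, and the cytochrome b5 reductase gene Cyb5r3 had a log2 difference of 0.44. Acat1, the mitochondrial thiolase, was the one with a negative difference, at 75.9, 82.0 and 39.8 FPKM in PGC libraries and 79.5, 89.3 and 92.1 FPKM in controls.

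Among 9 isoprenoid branch genes 0 passed and the median log2 difference was 0.31, or 0.18 without replicate 6. The 3 most abundant were Coq2, of ubiquinone synthesis, with a log2 difference of 0.19, Fnta, a farnesyltransferase subunit, with 0.28, and Nus1, of dolichol synthesis, with 0.34. Among 9 genes of SREBP processing and sterol sensing 0 passed and the median was 0.21, below that of all genes. Among its most abundant genes were the SREBP escort gene Scap (log2 difference 0.24) and the sterol-sensing receptor gene Nr1h2 (0.21). The SREBP proteases Mbtps1 and Mbtps2, chosen after their values were seen, had differences of 0.36 and 0.17.

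Among 10 genes of sterol uptake, efflux and esterification 0 passed and 8 differences were positive, against 80.6% of all tested genes. The median of this list was 0.44, or 0.21 without replicate 6. Among the most abundant were Lpcat3, a phospholipid acyltransferase, at 43.3, 43.3 and 59.8 FPKM in PGC libraries and 31.4, 31.3 and 28.1 FPKM in controls and Npc2, a lysosomal sterol carrier, at 44.5, 46.1 and 59.2 FPKM in PGC libraries and 29.8, 30.2 and 32.9 FPKM in controls. In both, every PGC library lay above every control. Leaving out replicate 6, Lpcat3 and Npc2 rose, with log2 differences of 0.50 and 0.53 (limma adjusted p = 0.0374, with a range of 0.00686 to 0.245 over 15 alternatives, and 0.0318, with a range of 0.00463 to 0.245).

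Fatty acid precursor and activation genes were mixed: 0 of 12 passed and the median was 0.20. Of their differences, 9 were positive, against 80.6% of all tested genes. The malic enzyme gene Me1, an NADPH source, overlapped between groups at 95.3, 174 and 116 FPKM in PGC libraries and 107, 112 and 94.0 FPKM in controls. The citrate carrier gene Slc25a1 did not overlap, at 103, 105 and 158 FPKM in PGC libraries and 59.2, 68.3 and 80.9 FPKM in controls (log2 difference 0.78, limma adjusted p = 0.0853). Acsl5, an acyl-CoA synthetase, was at 49.5, 54.5 and 60.0 FPKM in PGC libraries and 39.2, 40.7 and 38.0 FPKM in controls. Thrsp, a lipogenic gene of fat and liver chosen after its values were seen, was at 1.02, 1.94 and 0.54 FPKM in PGC libraries and 5.43, 4.56 and 5.61 FPKM in controls. Its log2 difference was -1.56 (SE 0.23, limma adjusted p = 0.0787), and it passed without replicate 6 at -1.34 (limma adjusted p = 0.0186, with a range of 0.00111 to 0.245 over 15 alternatives).

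The other elongation and desaturation genes had mostly positive differences. Of 8 tested, 0 passed, in 7 every PGC library lay above every control, against 42.7% of all tested genes, and the median log2 difference was 0.59. With median-of-ratios scaling 3 lay above and 1 below, against 17.6% and 17.5%. The chain-elongation enzymes Tecr (181, 188 and 258 FPKM in PGC libraries and 134, 134 and 144 FPKM in controls), Hsd17b12 (67.5, 58.9 and 68.8 FPKM in PGC libraries and 39.0, 45.0 and 45.2 FPKM in controls) and Hacd3 (56.5, 43.9 and 68.0 FPKM in PGC libraries and 28.7, 33.1 and 39.6 FPKM in controls) were the most abundant. Fads6 alone had a negative difference, -0.63. In triglyceride and phospholipid assembly 0 of 11 passed and the median was 0.26. Its most abundant genes were Agpat2, at 73.4, 110 and 86.9 FPKM in PGC libraries and 78.1, 62.3 and 84.0 FPKM in controls, Agpat1, with a log2 difference of 0.37, and Pnpla2, the triglyceride lipase, with 0.02. The lipid droplet gene Plin2, chosen after its values were seen, was at 13.8, 9.91 and 28.9 FPKM in PGC libraries and 6.42, 7.63 and 6.45 FPKM in controls, and it rose without replicate 6 (log2 difference 0.70, limma adjusted p = 0.0397, with a range of 0.00688 to 0.250 over 15 alternatives).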

How the data were processed

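The deposited values are FPKM per gene in 6 libraries, given by the authors to 2 decimals. The submitters' processing notes name STAR, featureCounts and the mouse build mm10. Not given in the sources used here are their versions, the annotation, strandedness and how counts became FPKM. Read depth is unknown, so no counting interval is given. Because FPKM are not counts, log2(FPKM + 1) entered limma 3.58.1 under R 4.3.3 (genotype as the only term, eBayes with trend, two-sided, 4 residual and 7.72 total degrees of freedom), with Benjamini-Hochberg adjustment over 11857 rows. The members and lists were chosen with earlier results of these data known. For each pathway list, the genes named were the 3 of highest mean FPKM, since none had passed. Some of these are not reported here. Role groups and lists are described by counts and medians, without a list test. Coordinates are from GENCODE M21 (GRCm38, the assembly of mm10) and promoters from RefSeq, matched by symbol. March6, Elovl3, Erg28 and Cblif matched no row by those symbols. Cblif, from the chief cell list, is in the table under its older symbol Gif. It was listed with the parietal markers and is not in the chief cell sum. The fit was tested on simulated data with independent noise and no library that stood apart. That test does not bear on the effect of replicate 6. The alternatives comprised 14 planned settings and 1 added later.

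Markers of other cells were also summed over each list. Hepatocyte genes came to 58.1 to 248 FPKM in PGC libraries and 110 to 163 FPKM in controls, pancreatic acinar genes to 33.7 to 82.3 and 21.4 to 31.4 FPKM, squamous genes to 3.89 to 14.0 and 0.26 to 0.90 FPKM, and macrophage genes to 60.5 to 195 and 50.3 to 103 FPKM. Few genes made up most of each of these sums: Ttr, Cela1, Krt13 with Ivl, and Lyz2. Cela1 was at 30.3 to 80.4 FPKM in PGC libraries and 18.1 to 29.0 FPKM in controls. Another acinar gene, Cela2a, was lower in every PGC library than in any control, and Cpa1 and Prss2 were near 0. Krt5 and Trp63 were also near 0. Smooth muscle genes came to 887 to 1313 FPKM in PGC libraries and 1960 to 3535 FPKM in controls, chief cell genes to 36345 to 198602 and 250668 to 307534 FPKM, and surface pit genes to 103700 to 108002 and 73052 to 143650 FPKM. The chief cell sum was separated by Pgc, at 16059 to 87455 FPKM in PGC libraries and 140325 to 194208 FPKM in controls. Of the 6 chief cell genes in the table, Pga5 lay above all controls in every PGC library. Clps, Chia1, Pnliprp1 and Bhlha15 overlapped between groups.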

Additional observations from a re-analysis of the deposited data

How the results depend on the processing

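No paired analysis was possible because the groups share no replicate numbers. With library weights, whose estimation stopped before it converged, 6 members were called higher and 2 lower, against 29.7% and 3.11% of all genes. Without replicates 3 and 6, chosen after seeing the data, 4 were called higher and 1 lower, against 16.4% and 1.34%. In that setting 19 lay above all controls and 3 below, against 55.8% and 9.18%. Leaving out 1 library gave 0 to 2 called higher (0% to 8.11% of all genes) and 0 called lower (0% to 0.961%). The median was then 0.27 to 0.58. With 1 library left out, 16 to 25 members lay above all controls (25 without replicate 4), against 44.2% to 53.3% of all genes. In the same settings 1 to 2 lay below, against 6.41% to 7.84%. Members above all controls numbered 5 with median-of-ratios scaling (17.6% of all genes), 4 with quantile normalization (17%) and 3 when the total left out the 50 most abundant genes (14%), and 3 lay below in each (17.5%, 18.5% and 19.5% of all genes). The median was 0.092 with quantile normalization and 0.081 with that total.

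Signs turned as follows, with no call on either side. Hmgcs1 was at -0.22, -0.27 and -0.27 under the 3 scalings in that order, -0.15 with library weights and -0.013 without replicates 3 and 6. Lss was at -0.14, -0.16 and -0.19, then -0.13 and -0.10. Acaca was at -0.23, -0.23 and -0.28, then -0.10 and -0.15. Acly was at -0.16, -0.20 and -0.21, and at -0.0045 without replicates 3 and 6. Fasn was at -0.060, -0.083 and -0.11, and at -0.0083 without those. Elovl1 was at -0.067, -0.10 and -0.12. Stard4 was at -0.0062 with the reduced total, and Mvk at -0.017 with library weights. With 1 library left out, Hmgcs1 ranged from -0.053 to 0.28, Lss from -0.0080 to 0.28 and Acaca from -0.088 to 0.068. The causes were not tested. Depth is unknown, so what it limits cannot be stated.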
